A study of Mus musculus with 6 samples.

Results

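The genes described here are 30 listed genes of sterol and fatty acid synthesis and of the SREBP system that controls them. They were chosen as a list of gene symbols, without a threshold on measured values. A probe was found for all 30, among 32451 genes or unnamed transcripts with a probe, of which 20659 carried a gene symbol. Each gene is represented by the brightest of its probes, and 10 of the 30 had more than 1 probe. All 40 probes of the 30 genes were well above background on all 6 arrays.

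Messenger RNA was measured in BV2 cells, a line derived from murine microglia. Microglia are tissue macrophages that reside in the brain. Cells were given recombinant murine IL-4, a cytokine that drives alternative activation of macrophages, at 10 ng/ml for 24 hr (n = 3) or PBS for 24 hr (n = 3), and each sample was hybridized to 1 single-colour Agilent array. All samples come from this 1 immortalized line, grown in medium with fetal bovine serum, which itself carries lipoproteins. The labels do not tell whether replicates were grown as separate cultures. If they were not, the spread behind each p-value is technical.

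Cells make cholesterol from acetyl-CoA, first through mevalonate and farnesyl diphosphate, then through squalene and lanosterol, and finally by a series of demethylations, reductions and isomerizations. When sterol in the endoplasmic reticulum is low, the escort protein SCAP carries the membrane-bound factor SREBP2 to the Golgi, where it is cut and released to switch on the pathway. INSIG proteins hold that complex back when sterol is plentiful. Fatty acid synthesis and desaturation are driven largely by the related factor SREBP1, and in macrophages the lipid programme is tied to activation state.

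The arrays did not divide evenly over the slides. Slide 1 carried all 3 IL-4 arrays together with PBS replicate 1, whereas the remaining PBS arrays, replicates 2 and 3, were on slide 2. Values are log2 signals relative to the 75th percentile of the same array, so they compare arrays for 1 probe, not the level of 1 gene with another. Summed marker levels add probes of different genes, so they mostly follow the brightest probes of a list. The share of all probes well above background was 87.9% to 97.0% on the IL-4 arrays and 88.9% to 98.0% on the PBS arrays. Arg1, the arginase gene used as a marker of the IL-4 response, was 2.02 ± 0.16 higher with IL-4 (SE, adjusted p = 0.011, limma) and 2.29 higher within slide 1. Leaving out 1 array, it passed without PBS replicate 1 or 3 and otherwise missed, with an adjusted p of up to 0.11. The microglial list stood at a summed level of 6.80 to 6.99 with IL-4 and 6.85 to 7.01 with PBS, a sum carried mostly by Ctss, at 6.33 and 6.22. Marker by marker the median difference was -0.30, beside -0.05 over all genes, with 8 of 10 below 0 and 5 of 10 with IL-4 arrays wholly below PBS (19.8% of all genes). Aif1 and Tyrobp were lower (adjusted p = 0.037 and 0.04) and the other 8 not called, where 2.54% of all genes were lower. The part of this in the differences below was not tested. All 10 passed the filter on dim probes, among them the receptor genes Csf1r, at 3.33 with IL-4 and 3.80 with PBS, and Cx3cr1, at -2.99 and -2.79.

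SREBP2 acts with the partner factors NF-Y, which binds CCAAT boxes, and SP1, which binds GC boxes, so the sequences upstream of the start sites of the genes are of interest. RefSeq windows of the assembly GRCm38.p6 were at hand for 23 of the 30 genes, 4 of them with more than 1 start, and were cut to the 250 bases before the start. Fdps, Sqle, Fdft1, Stard4, Scd1, Scd2 and Fads1 were not matched. The following 6 windows are shown as examples of 3 sterol enzymes, the pathway's own regulator, and a called and an uncalled fatty acid gene. They run 5′ to 3′ in the direction of the gene, ending at the base before its start, and capitals mark CCAAT or its complement ATTGG, and in Hmgcs1 also the sterol regulatory element form TCACNCCAC. The windows are chr13:119690101-119690350 (plus strand) for Hmgcs1, chr5:114444019-114444268 (plus strand) for Mvk, chr1:169969206-169969455 (minus strand) for Hsd17b7, chr15:82147019-82147268 (plus strand) for Srebf2, chr2:155517793-155518042 (plus strand) for Acss2 and chr11:120824548-120824797 (minus strand) for Fasn.
Hmgcs1: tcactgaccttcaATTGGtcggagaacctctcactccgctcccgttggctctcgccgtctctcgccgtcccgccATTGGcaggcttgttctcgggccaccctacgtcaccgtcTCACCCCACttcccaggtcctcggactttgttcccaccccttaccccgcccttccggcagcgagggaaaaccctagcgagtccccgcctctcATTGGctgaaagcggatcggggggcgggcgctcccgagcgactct
Mvk: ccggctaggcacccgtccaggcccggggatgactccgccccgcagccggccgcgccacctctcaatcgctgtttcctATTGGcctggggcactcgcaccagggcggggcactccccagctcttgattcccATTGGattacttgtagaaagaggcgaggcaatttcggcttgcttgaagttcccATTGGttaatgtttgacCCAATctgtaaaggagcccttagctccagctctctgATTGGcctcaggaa
Hsd17b7: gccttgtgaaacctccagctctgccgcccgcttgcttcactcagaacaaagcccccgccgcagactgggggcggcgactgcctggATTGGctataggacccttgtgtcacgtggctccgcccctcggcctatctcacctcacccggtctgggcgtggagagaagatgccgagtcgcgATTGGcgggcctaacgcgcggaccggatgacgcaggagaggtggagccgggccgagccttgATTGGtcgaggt
Srebf2: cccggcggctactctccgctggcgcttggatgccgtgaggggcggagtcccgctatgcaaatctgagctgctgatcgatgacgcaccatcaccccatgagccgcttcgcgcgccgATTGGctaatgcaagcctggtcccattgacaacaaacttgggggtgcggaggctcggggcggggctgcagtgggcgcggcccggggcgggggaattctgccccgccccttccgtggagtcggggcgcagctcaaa
Acss2: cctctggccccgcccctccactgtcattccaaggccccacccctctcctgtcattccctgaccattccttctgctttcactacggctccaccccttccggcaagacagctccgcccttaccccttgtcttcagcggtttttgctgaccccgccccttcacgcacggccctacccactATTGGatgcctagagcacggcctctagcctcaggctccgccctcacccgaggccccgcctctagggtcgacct
Fasn: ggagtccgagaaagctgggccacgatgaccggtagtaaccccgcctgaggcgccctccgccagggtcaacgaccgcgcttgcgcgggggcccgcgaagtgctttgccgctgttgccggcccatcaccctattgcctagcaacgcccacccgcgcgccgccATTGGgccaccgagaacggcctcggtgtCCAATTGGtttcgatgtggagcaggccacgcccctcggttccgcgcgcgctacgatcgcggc

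CCAAT, searched on both strands, was in the windows of 19 of the 23 genes (82.6%), against 37.5% of 27025 genes in the same RefSeq table and 39.2% of the 15193 tested genes that had a window. Counted by window it was in 19 of 29, against 33.8% of 32851. Mvk held 5 matches, at 173, 120, 67, 50 and 14 bases before the start. Hmgcs1, Hsd17b7, Msmo1, Fasn and 1 of the 3 windows of Insig2 held 3 each, and the matches of Fasn at 62 and 59 bases overlap on opposite strands. Acat2, Elovl6, Fads2 and Scap held none in these windows. The GC box GGGCGG, also on both strands, was in 20 of 23 genes (87.0%), against 35.4% of all genes and 49.8% of tested genes. TCACNCCAC was in 1 of 23, Hmgcs1, where TCACCCCAC lies 137 to 129 bases before the start, against 1.22% of all genes. These are matches of letters, not measured binding.

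**Figure D1:**
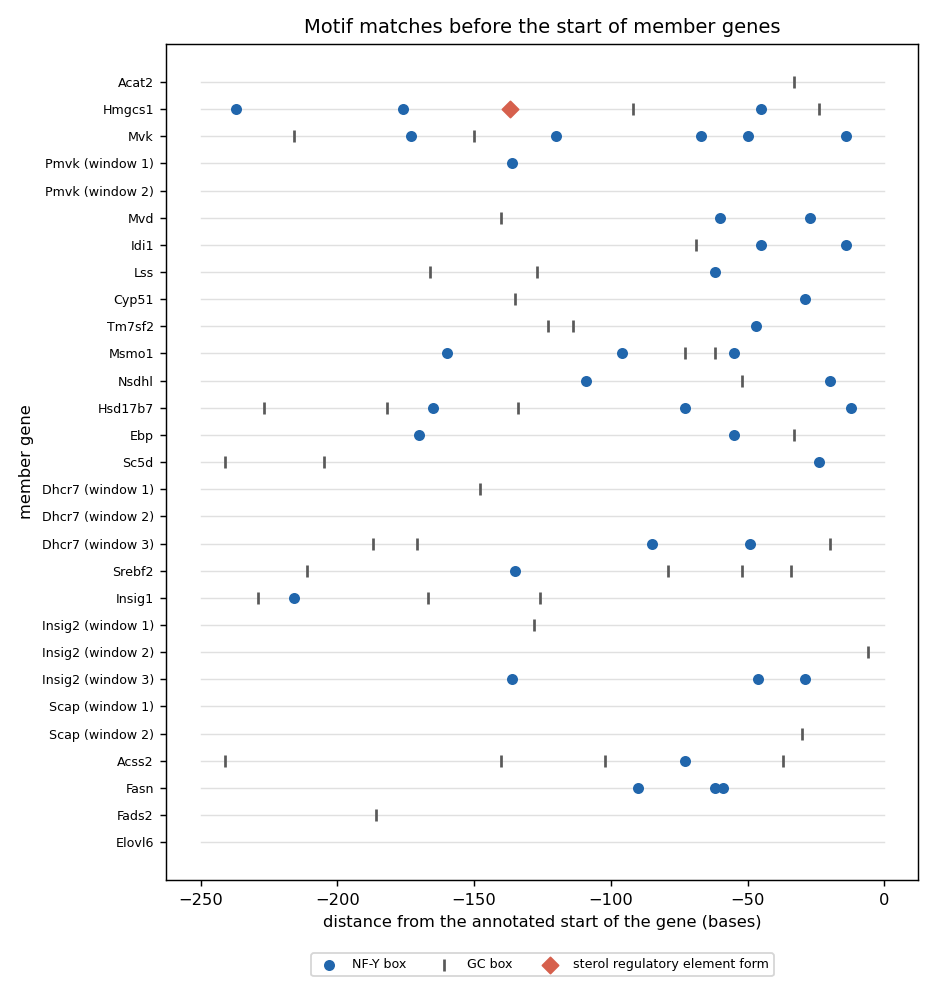
Matches of CCAAT (NF-Y box), GGGCGG (GC box) and TCACNCCAC (sterol regulatory element form) in the 250 bases before the annotated start, on the horizontal axis in bases, for the 29 windows of 23 genes. CCAAT matches appear in 19 of the 29 windows and the sterol regulatory element form in 1, that of Hmgcs1.

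Acss2, which makes acetyl-CoA from acetate, was the 1 gene of the 30 that passed the test. Over all 6 arrays it was lower with IL-4, and the other 29 did not pass an adjusted p under 0.05 (limma, adjusted over 29752 genes). Of all genes tested, 3.35% passed, 0.807% higher and 2.54% lower, so 1 in 30 is near that background. At an unadjusted p under 0.05 there were 9 of 30, against 34.1% of all genes. The median difference of the 30 was 0.02, with 16 above 0 and 14 below, beside -0.05 over all genes. IL-4 and PBS arrays did not overlap for 10 of the 30, 5 higher (Acat2, Fdft1, Sqle, Lss and Hsd17b7) and 5 lower (Nsdhl, Ebp, Insig2, Acss2 and Elovl6), against 37.9% of all genes, 18.1% higher and 19.8% lower. Since whole cultures were measured, fewer cells with a transcript and less of it per cell cannot be told apart.

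That count depended on single arrays. Without IL-4 replicate 1, 2 or 3, or PBS replicate 2 or 3, none of the 30 passed, and at most 3 of all 29752 genes did. Without PBS replicate 1 the IL-4 arrays of slide 1 face only PBS arrays of slide 2, and 4 genes were then higher (Acat2, Hsd17b7, Dhcr7 and Srebf2) and 9 lower (Hmgcs1, Cyp51, Tm7sf2, Nsdhl, Ebp, Insig2, Scap, Acss2 and Elovl6). In that comparison 19.5% of all genes were higher and 23% lower, and IL-4 and slide cannot be told apart. Each group of genes is given both against all PBS arrays and against PBS replicate 1, the PBS array on the slide of the IL-4 arrays.

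**Figure D2:**
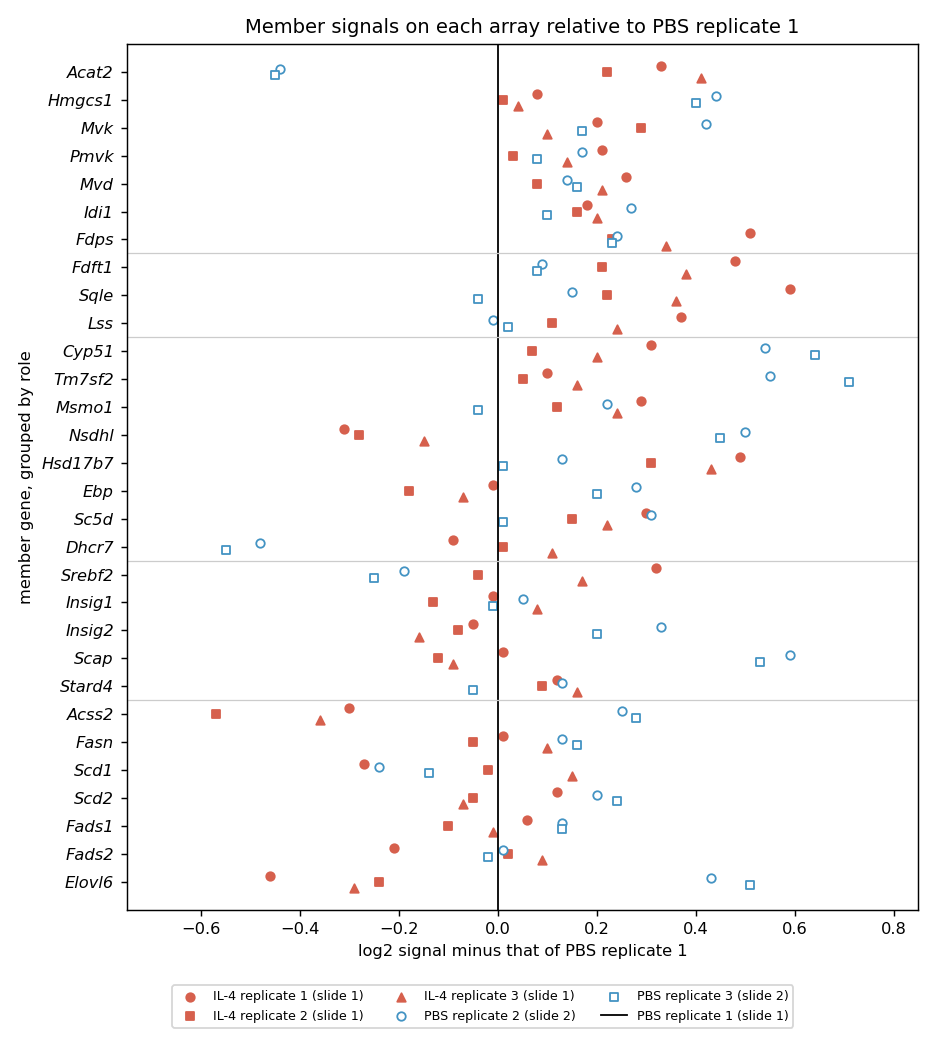
Each of the 30 genes on the vertical axis, with the log2 signal of each array minus that of PBS replicate 1 on the horizontal axis. Filled red symbols are the IL-4 arrays and open blue symbols PBS replicates 2 and 3 on slide 2. For Cyp51, Tm7sf2 and Hmgcs1 the IL-4 arrays lie above PBS replicate 1 and below the other PBS arrays.

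The 7 genes that lead from acetyl-CoA to farnesyl diphosphate showed no called difference over all arrays, with a median of 0.05. All 7 were above PBS replicate 1 on each of the 3 IL-4 arrays, against 30% of all genes. That count rests on 1 PBS array, and against PBS replicates 2 and 3 the median was 0.0011. Acat2 encodes the cytosolic thiolase that joins acetyl-CoA units into acetoacetyl-CoA. Its log2 signal was -0.71, -0.82 and -0.63 on the IL-4 arrays and -1.04, -1.48 and -1.49 on PBS replicates 1, 2 and 3. Every IL-4 array was above every PBS array, and PBS replicate 1 lay nearest to them. The difference of 0.62 ± 0.14 just missed the threshold (SE, adjusted p = 0.053) and was 0.32 ± 0.12 within slide 1. It passed in 8 of 17 alternative settings, among them the one without PBS replicate 1.

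Hmgcs1, the synthase that makes HMG-CoA, gave 2.48, 2.41 and 2.44 with IL-4 and 2.40, 2.84 and 2.80 with PBS. The IL-4 arrays sat just above PBS replicate 1 and well below the other PBS arrays. The difference was accordingly -0.24 ± 0.13 over all arrays (adjusted p = 0.24) and 0.04 ± 0.11 within slide 1. Fdps, which makes farnesyl diphosphate, gave 5.01, 4.73 and 4.84 with IL-4 and 4.50, 4.74 and 4.73 with PBS. IL-4 replicate 2 fell among the PBS values, so the groups overlapped, and the difference was 0.21 ± 0.12 (adjusted p = 0.25), or 0.36 ± 0.14 within slide 1.

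The mevalonate and phosphomevalonate kinases Mvk and Pmvk, the decarboxylase Mvd and the isomerase Idi1 differed little over all arrays. Their differences were 0.001, 0.04, 0.08 and 0.05, with adjusted p from 0.59 to 1.0, and the signs of Mvk and Idi1 turned under some other scalings. Against PBS replicate 1 they were 0.19, 0.13, 0.18 and 0.18.

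Squalene and lanosterol are made by Fdft1, the squalene synthase, Sqle, the epoxidase that is a rate-limiting step, and Lss, the lanosterol synthase. None of the 3 passed the test, and all 3 had IL-4 arrays wholly above the PBS arrays, as 18.1% of all genes did. Sqle gave 4.35, 3.98 and 4.12 with IL-4 and 3.76, 3.91 and 3.72 with PBS, a difference of 0.35 ± 0.12 (adjusted p = 0.098). Fdft1 gave 0.11, -0.16 and 0.01 with IL-4 and -0.37, -0.28 and -0.29 with PBS, a difference of 0.30 ± 0.11 (adjusted p = 0.1). Lss differed by 0.24 ± 0.11 (adjusted p = 0.16), with IL-4 arrays from -0.18 to 0.08 and PBS arrays from -0.30 to -0.27. The choice of PBS array moved these differences little, to 0.39, 0.35 and 0.24 within slide 1 for Sqle, Fdft1 and Lss. A second, dimmer probe of Fdft1 gave -0.01 over all arrays and -0.05 within slide 1.

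The 8 enzymes after lanosterol were split over all arrays, 4 above 0 and 4 below, and none passed. Nsdhl, a dehydrogenase that removes methyl groups from the sterol ring, gave -2.39, -2.36 and -2.23 with IL-4 and -2.08, -1.58 and -1.63 with PBS. All IL-4 arrays were below all PBS arrays, most clearly below those of slide 2. The difference was -0.56 ± 0.15 (adjusted p = 0.06) and -0.25 ± 0.12 within slide 1. It passed in 4 of 17 alternative settings, among them the one without PBS replicate 1. Normexp background correction gave -0.34 or -0.36, depending on the scaling.

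Hsd17b7, the reductase that acts directly after Nsdhl, lay on the other side of 0. Its signal was -1.60, -1.78 and -1.66 with IL-4 and -2.09, -1.96 and -2.08 with PBS, with no overlap. The difference was 0.36 ± 0.10 over all arrays (adjusted p = 0.066) and 0.41 ± 0.12 within slide 1, the largest of the 30 upwards there. Its second, dimmer probe gave -0.26 and -0.04, so the probes of this gene did not give 1 direction. Normexp gave 0.23 or 0.21, and the mean of both probes 0.05.

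Dhcr7, the reductase that ends 1 branch of the pathway in cholesterol, gave -2.39, -2.29 and -2.19 with IL-4 and -2.30, -2.78 and -2.85 with PBS. PBS replicate 1 lay among the IL-4 arrays. The difference of 0.35 ± 0.16 (adjusted p = 0.16) was 0.0083 ± 0.12 within slide 1. Tm7sf2, a sterol reductase, gave -0.56, -0.61 and -0.50 with IL-4 and -0.66, -0.11 and 0.05 with PBS. Here too PBS replicate 1 was close to the IL-4 arrays, and the difference turned from -0.32 ± 0.18 over all arrays to 0.10 ± 0.12 within slide 1. The lanosterol demethylase Cyp51 did likewise, at -0.20 ± 0.17 and 0.19 ± 0.13.

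The monooxygenase Msmo1 and the desaturase Sc5d differed by 0.16 and 0.11 over all arrays and by 0.22 each within slide 1. For both genes all 3 IL-4 arrays were above PBS replicate 1, as for 30% of all genes. The isomerase Ebp had IL-4 arrays from 0.67 to 0.84, just under PBS replicate 1 at 0.85, and differed by -0.25 ± 0.11 over all arrays (adjusted p = 0.16), -0.15 or -0.13 with normexp, and -0.09 within slide 1.

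Among the regulators none passed. Srebf2, which encodes SREBP2 itself, gave -0.75, -1.11 and -0.90 with IL-4 and -1.07, -1.26 and -1.32 with PBS. IL-4 replicate 2 was below PBS replicate 1, so the groups overlapped, and the difference was 0.29 ± 0.13 (adjusted p = 0.15), or 0.15 ± 0.15 within slide 1. Insig1, a retention protein and itself a target of SREBP, gave -2.34, -2.46 and -2.25 with IL-4 and -2.33, -2.28 and -2.34 with PBS. All PBS arrays lay inside the range of the IL-4 arrays, with a difference of -0.03 ± 0.10 (adjusted p = 0.83).

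Insig2, the other retention protein, gave 1.35, 1.32 and 1.24 with IL-4 and 1.40, 1.73 and 1.60 with PBS. The IL-4 arrays were all below the PBS arrays, the nearest being PBS replicate 1, and the difference was -0.28 ± 0.11 (adjusted p = 0.14) and -0.10 ± 0.12 within slide 1. Its probes were almost equally bright, at means of 1.44 and 1.41, and the other gave -0.06 ± 0.10 over all arrays. That other probe is the brighter with normexp background correction, an alternative to the scanner's own, where the difference was -0.09 or -0.06, and without PBS replicate 2, where it was -0.02. Scap, the escort of SREBP2, gave 1.41, 1.28 and 1.31 with IL-4 and 1.40, 1.99 and 1.93 with PBS. PBS replicate 1 fell inside the IL-4 range, and the difference of -0.44 ± 0.16 (adjusted p = 0.11) was -0.07 ± 0.11 within slide 1. Stard4, a soluble sterol carrier, differed by 0.10 ± 0.10 and 0.12 ± 0.12.

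The called gene was in the fatty acid group. Acss2, the cytosolic synthetase that turns acetate into acetyl-CoA, gave 0.16, -0.11 and 0.10 with IL-4 and 0.46, 0.71 and 0.74 with PBS. All 3 IL-4 arrays were below all PBS arrays, including the one on their own slide. The log2 difference was -0.58 ± 0.12 (SE, adjusted p = 0.049), a fall that passed the test, and PBS was 1.5-fold above IL-4. Within slide 1 the difference was -0.41 ± 0.14, which did not pass (adjusted p = 0.37). Without 1 array the difference was -0.50 to -0.67, and it passed only without PBS replicate 1 (adjusted p = 0.0038) and otherwise had an adjusted p of 0.15 to 0.2. A second, dimmer probe gave -0.12 ± 0.11 over all arrays and 0.02 within slide 1, and with the mean of both probes the gene did not pass (-0.35, adjusted p = 0.086).

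Elovl6, the elongase that extends palmitate, gave -1.69, -1.47 and -1.52 with IL-4 and -1.23, -0.80 and -0.72 with PBS. Again the groups did not overlap and PBS replicate 1 was the PBS array nearest to IL-4. The difference was -0.64 ± 0.15 (adjusted p = 0.054) and -0.33 ± 0.13 within slide 1. Elovl6, like Acss2 and Acat2, passed in 8 of 17 alternative settings, among them the authors' own value table. For each gene 1 of the 8 was without PBS replicate 1, where IL-4 and slide cannot be told apart. In the others 1733 to 4100 of all genes passed, against 997 with the settings used above.

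The other fatty acid genes differed little between the groups. Fasn, the fatty acid synthase, gave -2.18, -2.24 and -2.09 with IL-4 and -2.19, -2.06 and -2.03 with PBS, a difference of -0.07 ± 0.10 (adjusted p = 0.61). The stearoyl-CoA desaturase Scd1 gave -4.19, -3.94 and -3.77 with IL-4 and -3.92, -4.16 and -4.06 with PBS, and Scd2 gave 4.80, 4.63 and 4.61 with IL-4 and 4.68, 4.88 and 4.92 with PBS. Both genes overlapped between the groups, with differences of 0.08 ± 0.14 and -0.14 ± 0.11 (adjusted p = 0.69 and 0.38). They belong to a family of similar sequence, and cross-hybridization between its probes was not tested. Fads1 and Fads2, desaturases of polyunsaturated fatty acids, differed by -0.10 ± 0.10 and -0.03 ± 0.11.

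**Figure D3:**
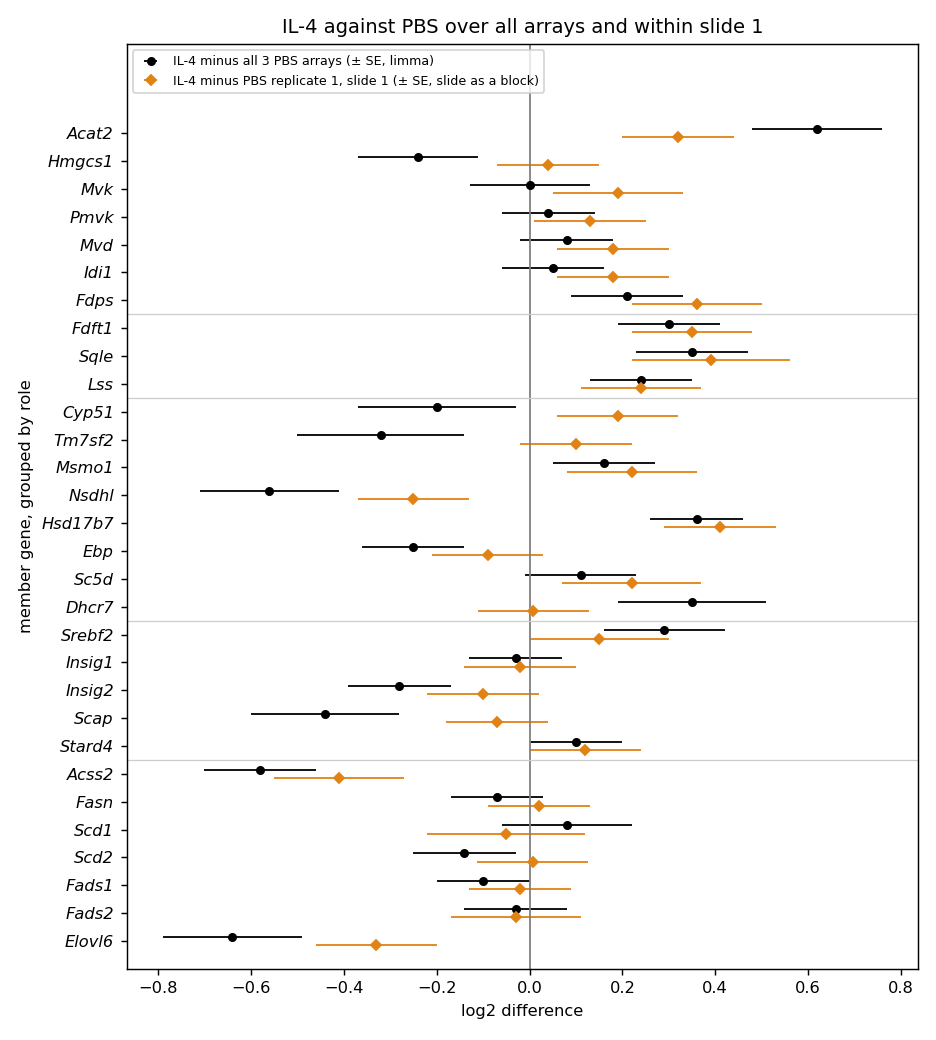
Log2 difference of each gene on the horizontal axis, as IL-4 minus all 3 PBS arrays (black circles) and IL-4 minus PBS replicate 1 on slide 1 (orange diamonds), with bars of ± 1 SE from limma. Acss2 and Elovl6 lie below 0 and Hsd17b7, Sqle and Fdft1 above 0 in both, whereas Hmgcs1, Cyp51 and Tm7sf2 lie on opposite sides.

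Within slide 1 most sterol enzymes lay above 0, and the fatty acid genes lay near or below it. With slide as a block, none of the 30 passed (lowest adjusted p = 0.34, limma), where 0.0303% of all genes did, and 6 had an unadjusted p under 0.05 (Acat2, Fdps, Fdft1, Hsd17b7, Acss2 and Elovl6) against 10.2% of all genes. The difference was above 0 for 20 of the 30 and for 51.2% of all genes, with medians of 0.11 and 0.0055. All 3 IL-4 arrays were above PBS replicate 1 for 16 of the 30, against 30% of all genes, and all 3 below it for 5, against 25.5%. Every one of these differences uses the same single PBS array, so they are not independent of each other.

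By role, all 3 IL-4 arrays were above PBS replicate 1 for 7 of 7 mevalonate genes, 3 of 3 squalene and lanosterol genes, 5 of 8 later enzymes, 1 of 5 regulators and transport genes, and 0 of 7 fatty acid genes. Over all genes that share was 30%. By group, the medians within slide 1 were 0.18, 0.35, 0.15, -0.02 and -0.03 in the same order. Over all arrays they were 0.05, 0.30, -0.04, -0.03 and -0.10. For the 18 sterol enzymes the median within slide 1 was 0.19, or 1.14-fold. There 16 of 18 lay above 0, against 51.2% of all genes, the exceptions being Nsdhl and Ebp. Over all arrays the median of the 18 was 0.10, with 13 above 0, against 43.5% of all genes. Against PBS replicates 2 and 3 it was 0.05. The first 2 groups, 10 genes, kept their sign within slide 1 in all 13 alternative settings. All of these settings use the same single PBS array. Leaving out PBS replicate 2 or 3, or changing the filter on dim probes, could not change these differences. Each setting used the brightest probe of a gene or the mean of its probes. The second, dimmer probe gave -0.01 for Mvk, -0.05 for Fdft1 and 0.18 for Pmvk within slide 1. No difference between roles was tested.

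**Figure D4:**
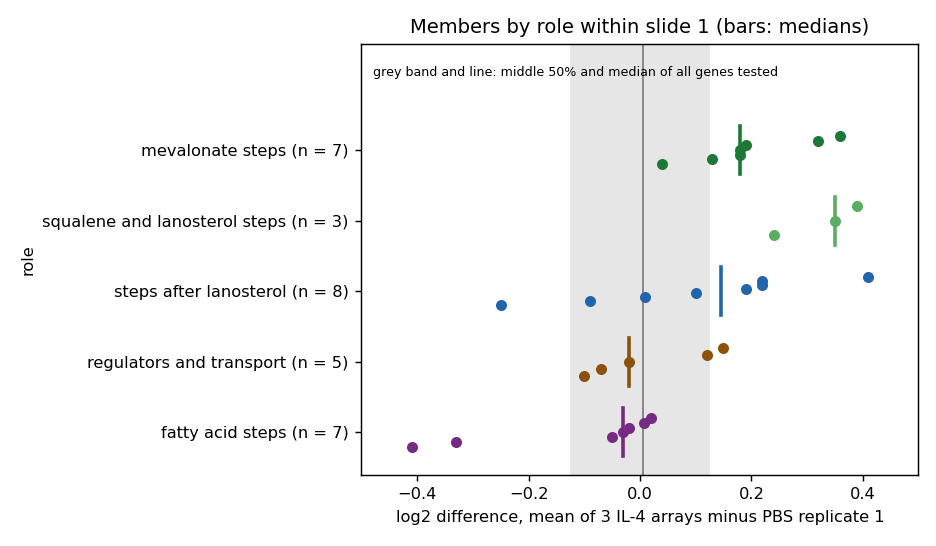
Log2 difference within slide 1 (mean of the 3 IL-4 arrays minus PBS replicate 1, horizontal axis) for the 30 genes, 1 point a gene, sorted into 5 roles, with a bar at each median. The medians run from 0.35 for squalene and lanosterol steps to -0.03 for fatty acid steps, and the grey band gives the middle 50% of all genes tested.

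The PBS arrays themselves differed for these genes by slide. The mean of PBS replicates 2 and 3 was above PBS replicate 1 for 25 of the 30, with a median of 0.14, against 59.7% and 0.08 over all genes. The slide coefficient passed for Tm7sf2 at 0.63 ± 0.13 (adjusted p = 0.037) and for Scap at 0.56 ± 0.12 (adjusted p = 0.045), both higher on slide 2, where 0.8% of all genes were called higher and 5.84% lower. It was 0.58 for Cyp51, 0.47 each for Nsdhl and Elovl6, 0.42 for Hmgcs1, -0.51 for Dhcr7 and -0.44 for Acat2, with adjusted p from 0.059 to 0.091. For 6 genes, Hmgcs1, Cyp51, Tm7sf2, Fasn, Scd1 and Scd2, the sign of the IL-4 difference depends on whether slide 2 is included. With 1 PBS array on slide 1, a slide difference and a deviation of that 1 sample cannot be told apart.

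A second probe of a gene did not always repeat the first. Of the 10 genes with a further probe, 5 had probes on opposite sides of 0 over all arrays (Mvk, Fdft1, Tm7sf2, Hsd17b7 and Srebf2). The dimmer probe gave -0.08 for Mvk, 0.19 for Tm7sf2 and -0.02 for Srebf2. It kept the side of 0 for Nsdhl at -0.26, Insig2 at -0.06, Pmvk at 0.07 and Stard4 at 0.0086. Which probe reports a transcript better was not tested.

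Another 32 genes of the same pathways were listed apart from the 30. None was higher with IL-4 and 1 was lower, against 0.807% and 2.54% of all genes. The median was -0.03, beside -0.05 over all genes. The lower gene was Ggps1, which makes geranylgeranyl diphosphate for protein prenylation, at 0.97 ± 0.09 with IL-4 and 1.5 ± 0.15 with PBS (SD, n = 3 each, adjusted p = 0.049). Within slide 1 its difference was -0.39 and did not pass. Srebf1, which encodes SREBP1, differed by 0.03 (adjusted p = 0.86). Lpin1, a phosphatidate phosphatase, was at -2.98 with IL-4 and -2.56 with PBS (adjusted p = 0.059), and -0.43 apart within slide 1. Acly, the citrate lyase that supplies acetyl-CoA, was at 3.25 and 2.89 (adjusted p = 0.071), and 0.33 apart within slide 1. For Scd3 the difference was 1.03 (adjusted p = 0.062) over all arrays and 0.30 within slide 1, while slide 2 was lower than slide 1 among PBS arrays by a coefficient of -1.09 (adjusted p = 0.0059).

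Of 11 genes that export, store or move sterol, 2 were lower and none higher, against 2.54% and 0.807% of all genes. Their median was -0.35 over all arrays, beside -0.05 over all genes. Within slide 1, where none passed, it was -0.08, beside 0.0055. Abca1, the exporter that loads cholesterol onto apolipoproteins, gave 0.12, 0.19 and 0.14 with IL-4 and 0.78, 1.07 and 1.27 with PBS. All IL-4 arrays were below all PBS arrays, and the difference was -0.89 ± 0.14 (adjusted p = 0.03) and -0.62 ± 0.12 within slide 1 (adjusted p = 0.18). Nceh1, a neutral cholesterol ester hydrolase, was the other, at -0.0089 ± 0.06 with IL-4 and 0.44 ± 0.04 with PBS (SD, n = 3 each, adjusted p = 0.048), and -0.41 apart within slide 1. Without 1 array other than PBS replicate 1, neither these genes nor Ggps1, Aif1 and Tyrobp passed (adjusted p = 0.11 to 0.19).

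Summed markers of 2 other brain cell types did not overlap between the groups. Of the oligodendrocyte list 0 of 5 passed, and its summed level was 1.75 to 1.93 with IL-4 and 0.93 to 1.72 with PBS. Of the neuron list 0 of 5 passed, at 1.05 to 1.29 and 0.70 to 0.92. That sum is carried by Snap25, at 0.85 with IL-4 and 0.46 with PBS, and for 3 of the other 4 neuron markers (Rbfox3, Tubb3 and Map2) the groups overlapped. The astrocyte, endothelial and fibroblast lists overlapped between the groups, with 0 of 4 passed in each. The value of Aqp4 was missing on PBS replicate 3, so the astrocyte sum of that array, 3.42, was without it. Mog, a myelin gene that carries the oligodendrocyte sum, was at 1.52 to 1.71 with IL-4, 1.43 on PBS replicate 1, and 0.60 and 0.37 on PBS replicates 2 and 3, so it also differed by slide. None of the tested markers is listed at 0, Gja1 of the astrocyte list was not tested, and the part of these markers in the differences above was not tested.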

How the data were processed

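Expression was measured on 6 single-colour Agilent arrays, 1 per sample, with groups and replicate numbers taken from the labels. The scanner files deposited by the authors give a linear intensity for each spot. Per the file headers, they were written by Agilent Feature Extraction 11.0.1.1, which subtracted background and detrended the processed signal within each array. A second deposited file holds the authors' log2 values in 39485 rows. These look quantile-normalized, with a median of 6.92 in all 6 columns, correlated at 0.999 or above with the log2 processed signal of their own array, and served as an alternative. The number of arrays limits the precision.

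Controls and outlier spots (87 to 394 per array) were removed, none was saturated, and spots of 1 probe were averaged, leaving 39429 probes. Processed signals were taken to log2 and expressed relative to the 75th percentile of their array. RefSeq (GRCm38.p6) gave symbols to 27234 probes by accession, and 12195 stayed unnamed by it. Probe coordinates are not printed, since the headers name another annotation build. A probe was tested where it was well above background throughout at least 1 group, and the brightest probe represented its gene. limma 3.58.1 in R 4.3.3 (lmFit, eBayes) fitted IL-4 minus PBS over 29752 genes with Benjamini-Hochberg adjustment and a threshold of 0.05. The same model with slide as a block equals the comparison within slide 1. Every adjusted p comes from limma, every SE from its model, and every SD from the 3 arrays of a group. Summed marker levels are log2 of summed linear values. Only the limma fits were tried on simulated data, which had no slide difference. That trial cannot tell how the fits behave with the uneven slides of these arrays. Reading, scaling, filtering and probe choice were not tested on simulated data.

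All 30 genes were to be reported, with values by array for called genes, the 12 others with the largest difference, and Srebf2, Insig1, Hmgcs1, Sqle, Fasn, Scd1 and Scd2. Named companions were the called genes, up to 6 per list by adjusted p, and Srebf1 and Abca1 whatever their values; some listed genes are not reported here. Genes and lists were chosen with earlier results of these data known. Alternatives were other scalings, normexp background correction (offset 50, on the median instead of the mean spot signal), other filters, the mean of a gene's probes, the value table, blocks, slide 1 alone and leaving out each array.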

Additional observations from a re-analysis of the deposited data

How the results depend on the processing

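Of the 30 genes, 0 were called higher and 1 lower over all arrays, and both counts moved with the settings. The higher count was 1 with the replicate block, quantile normalization, median scaling, either normexp setting and the authors' value table, and 2 with only probes well above background on all arrays. The lower count was 3 with the replicate block, normexp with quantile, and that filter. It was 2 with quantile normalization, median scaling, normexp with the 75th percentile and the value table, and 0 with slide as a block, slide 1 only, no filter and the mean of a gene's probes. Leaving out 1 array gave 0 to 4 higher and 0 to 9 lower, the upper ends without PBS replicate 1. The median of 0.02 was 0.11 with slide as a block and on slide 1 only. Within slide 1 none of the 30 passed in any setting, and the median was 0.08 to 0.14. Genes called among all tested numbered 997, and 3770 with the replicate block, 2637 with quantile normalization, 1733 with median scaling, 4100 and 3140 with normexp (75th percentile and quantile), 15 with no filter, 3808 with the filter on all arrays, 605 with probe means, 2299 with the value table, 9 with slide as a block, 1 on slide 1 only, and 0 to 12649 without 1 array. The 9 within slide 1 became 60 with quantile normalization, 27 with median scaling, 796 and 403 with normexp, 1 with no filter, 29 with the filter on all arrays, 2 with probe means, 76 with the value table and 0 to 18 without 1 array. Of all 997 calls 240 were higher, against 1804 of 3770 with the replicate block and 2029 of 4100 with normexp and the 75th percentile. The labels do not tell whether replicate numbers pair the samples. The deviations of same-numbered arrays correlated at 0.083, -0.016 and 0.296, and those of other pairs at -0.19 to 0.064. Pairing was not tested beyond this. The filter on all arrays tests fewer genes and no filter tests more; other causes of these shifts were not tested.

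Of the 17 genes with a difference of at least 0.2 over all arrays, 10 moved by over 1.5 times under another scaling, background correction or probe rule. With normexp (75th percentile and quantile) Nsdhl was at -0.34 and -0.36 in place of -0.56, Hsd17b7 0.23 and 0.21 in place of 0.36, Ebp -0.15 and -0.13 in place of -0.25, and Insig2, through its other probe, -0.09 and -0.06 in place of -0.28; Sqle was at 0.23 with normexp and quantile. Fdps, at 0.21, was at 0.08 with quantile normalization, 0.04 with normexp and quantile, and 0.10 with the value table. Probe means gave Fdft1 0.14, Tm7sf2 -0.06, Hsd17b7 0.05, Srebf2 0.14, Insig2 -0.17 and Acss2 -0.35.

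Signs turned mostly for genes with small differences. With slide as a block and on slide 1 only, Hmgcs1 was at 0.04, Cyp51 0.19, Tm7sf2 0.10, Fasn 0.02, Scd1 -0.05 and Scd2 0.0066, and Insig2 at 0.0029 on slide 1 only, where its other probe is the brighter. Over all arrays Idi1 was at -0.06 with quantile normalization and with normexp and quantile, and -0.04 with the value table, and Fads2 at 0.01 with quantile normalization and the value table. Mvk was at -0.0091 with median scaling, -0.02 with normexp and the 75th percentile, and -0.04 with probe means. Without 1 array, Mvk ranged from -0.10 to 0.11, Idi1 from -0.0072 to 0.13, Insig1 from -0.08 to 0.02, Scd1 from -0.02 to 0.19 and Fads2 from -0.09 to 0.05. Within slide 1, Scd2 was at -0.09 with quantile normalization and the value table, -0.03 with normexp and the 75th percentile and -0.11 with normexp and quantile, and Fads2 at 0.02, 0.02, 0.12 and 0.01 in those settings. Normexp with the 75th percentile also gave Insig1 0.02, Insig2 0.02, Scd1 0.08 and Fads1 0.0017, and normexp with quantile Insig2 0.03 and Fasn -0.00042. Without 1 array, the values within slide 1 ran from -0.04 to 0.06 for Dhcr7, -0.07 to 0.04 for Insig1, -0.13 to 0.0029 for Insig2, -0.02 to 0.06 for Fasn, -0.15 to 0.06 for Scd1, -0.05 to 0.04 for Scd2, -0.05 to 0.03 for Fads1 and -0.10 to 0.05 for Fads2. All 30 genes were well above background on all arrays, yet background correction moved several of them.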
